A study of Mus musculus with 4 samples.

Results

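The alpha and beta tubulin isotypes of the mouse retina were followed by name in 4 RNA-seq libraries of sorted cells. The set held 9 genes out of the 21827 genes analyzed, 4 alpha isotypes (Tuba1a, Tuba1b, Tuba1c and Tuba4a) and 5 beta isotypes (Tubb2a, Tubb2b, Tubb3, Tubb5 and Tubb6), and every one of them had 1 line in each table with the status OK. Retinas came from transgenic mice whose Hes1 promoter drives a destabilized EGFP (pHes1-EGFP), so that the EGFP marks cells with an active promoter and fades where it is off. The strain in the labels is FVB/N, no treatment was given, and the number of animals pooled for a sort is not given in the sources used here. Cells with EGFP (pHes1_EPC) and cells without it (pHes1_ENC) were collected at postnatal day 1 (P1) and at postnatal day 4 (P4), and each of these 4 groups is 1 library. There were thus no replicates and no test between groups was possible, and every difference below is a description of these libraries. Levels are FPKM, which are fragments per kilobase of transcript scaled to the number of mapped fragments, and differences are log2(FPKM + 1) in pHes1_EPC minus that in pHes1_ENC, or at P4 minus that at P1. Where 4 values follow each other without labels, their order is P1 pHes1_ENC, P1 pHes1_EPC, P4 pHes1_ENC, P4 pHes1_EPC.

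Alpha and beta tubulin form the dimers from which microtubules are built, and each is made from several genes whose proteins are alike in the body and differ mostly in the acidic tail at the C-terminus. Microtubules form the mitotic spindle of dividing cells and the tracks of axons and dendrites, and enzymes add or remove glutamate and tyrosine at the tails. Tubb3 is the isotype used as a marker of neurons, Tubb2a and Tubb2b are abundant in the nervous system, and Tubb5 is found in most cells and is high in neural progenitors. Hes1 is a Notch target that is expressed in retinal progenitors and Müller glia. The question behind the sort was how cells with an active Hes1 promoter differ from the other retinal cells while glia form.

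The last 60 bases of the coding sequence, which hold the tail and the stop codon, are shown because the isotypes differ most in the tail and because they show how alike some of the genes are. They are written 5′ to 3′ from NCBI37/mm9, and capitals mark the in-frame glutamate codons GAA and GAG.
Tuba1c: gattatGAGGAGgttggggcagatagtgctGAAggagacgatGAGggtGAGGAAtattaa
Tuba4a: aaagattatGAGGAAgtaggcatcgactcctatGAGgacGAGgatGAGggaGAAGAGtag
Tubb2a: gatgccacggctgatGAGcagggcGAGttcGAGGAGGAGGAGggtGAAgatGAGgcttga
Tubb2b: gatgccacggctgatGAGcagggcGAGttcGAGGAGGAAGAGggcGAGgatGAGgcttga
Tubb3: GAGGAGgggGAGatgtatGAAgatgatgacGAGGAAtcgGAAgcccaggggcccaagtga
Tubb5: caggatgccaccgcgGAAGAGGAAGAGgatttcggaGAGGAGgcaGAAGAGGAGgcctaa

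These stretches lie at chr15:98868381-98868440 on the plus strand for Tuba1c and chr1:75212197-75212256 on the minus strand for Tuba4a. For the beta isotypes they lie at chr13:34166337-34166396 (Tubb2a, minus strand), chr13:34219340-34219399 (Tubb2b, minus strand), chr8:125945523-125945582 (Tubb3, plus strand) and chr17:35971927-35971986 (Tubb5, minus strand). Compared base by base without gaps, the tails of Tubb2a and Tubb2b differed at 3 of 60 bases, and those of Tubb3 and Tubb5 at 33. Tubb3 has 450 codons before the stop and Tubb5 has 444, so the count of 33 can include bases that do not correspond. Tuba1c ends in a codon for tyrosine before the stop (tat), whereas Tuba4a lacks it and ends in a glutamate codon. Over the aligned coding sequence Tuba1a and Tuba1b were identical at 98.3% of bases, Tubb2a and Tubb2b at 96.5%, and Tubb3 and Tubb5 at 82.3%.

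Alike sequences matter for the values, since the reads were 36 bases long and could be placed at up to 50 positions. Every 36-base window of each spliced transcript was therefore searched in the chromosomes of NCBI37/mm9. Windows found at more than 1 place made up 78.7% of Tuba1a, 88.5% of Tuba1b and 67.1% of Tuba1c, and 55.9% of Tubb2a and 67.9% of Tubb2b. The share was much lower for the remaining isotypes, at 22.4% for Tubb3, 4.79% for Tubb5, 3.57% for Tuba4a and 1.92% for Tubb6. Windows that also occur outside tubulin exons made up 75.3% of Tuba1a, 84.0% of Tuba1b and 62.4% of Tuba1c, and 36.5% of Tubb2a and 42.9% of Tubb2b. The levels of these isotypes are therefore uncertain, both among each other and against other genes. Tubb3, Tubb5, Tuba4a and Tubb6 rest mostly on windows of their own. When the FPKM were re-assigned under the assumption that a read with several places was divided evenly among them, all 18 fraction differences and all 18 age differences of the members kept their sign and their side of 2-fold.

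**Figure D1:**
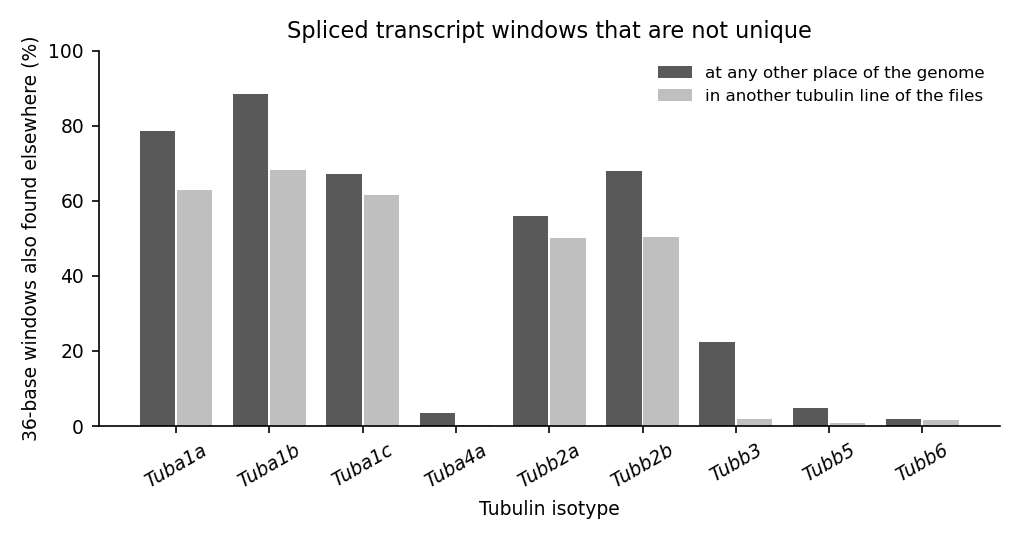
Percent of the 36-base windows of each isotype's spliced transcript that occur at another place of NCBI37/mm9 (dark bars) or in another tubulin line of the tables (light bars). The dark bars of Tuba1a, Tuba1b, Tuba1c, Tubb2a and Tubb2b stand between 55.9% and 88.5%, and the dark bars of Tuba4a, Tubb5 and Tubb6 at no more than 4.79%.

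The FPKM of all genes summed to 277421, 294767, 303860 and 371999, and the 9 isotypes made up 1.06%, 0.980%, 0.618% and 0.772% of these sums. Read totals are not listed in the tables. The 95% interval that Cufflinks gives for each FPKM stands in for the counting error, and it says nothing of the variation between animals or sorts. For 7 or 8 of the 9 isotypes in each library the FPKM lay outside its own interval, against 29.8% to 32.6% of all lines with an FPKM of at least 10, so the ranges of ratios given here, which use the interval bounds, are a rough measure. Gene sets for the sorted cells moved with the fractions: of 12 genes of Müller glia 10 exceeded 2-fold at P1 and 11 at P4 in favour of pHes1_EPC, and so did all 9 genes of dividing cells at both ages. Of 12 neuronal genes 10 were lower by more than 2-fold in pHes1_EPC at P1 and 3 at P4, and of 6 photoreceptor genes 5 and 6 were. pHes1_EPC thus held glial and dividing markers together, and an isotype that was high there cannot be given to glial or to dividing cells alone. Summed FPKM of 6 red cell genes was 214 and 514 in the pHes1_ENC libraries against 0.857 and 8.69 in pHes1_EPC. That of 4 genes of the pigment epithelium was 31.3 in P4 pHes1_EPC against 0.525 to 3.84 in the other libraries. Most of the 31.3 came from Ttr (23.1), beside 5.64 for Tyrp1, 2.08 for Mlana and 0.422 for Rpe65. Summed FPKM of the 6 photoreceptor genes was 542, 33.5, 2733 and 553, and was higher at P4 than at P1 in each fraction. The part of photoreceptors, red cells and pigment epithelium in the tubulin values was not tested.

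At P1, 1 isotype, Tubb6, was more than 2-fold higher in pHes1_EPC, where 6.10% of all genes were, and 3 isotypes, Tubb2a, Tubb2b and Tubb3, were more than 2-fold lower, where 6.79% of all genes were. At P4 the 2 isotypes Tubb5 and Tubb6 were more than 2-fold higher (9.85% of all genes) and 0 were lower by this measure (5.42% of all genes). The P4 split depended on the scaling, with 1 higher and 2 lower isotypes after rescaling to the same total or quantile normalization, and 1 and 1 after median-of-ratios scaling. Most isotypes are highly expressed, and the background among the 8403 genes that reached an FPKM of 10 in 1 library or more was higher, with 10.9% above and 11.1% below at P1, and 17.4% above with 9.94% below at P4. The median difference of these genes was 0.04 at P1 and 0.20 at P4 on the deposited scale, and median-of-ratios scaling moved the latter to 0.01. Since these are bulk libraries, fewer cells of a type and less RNA per cell cannot be told apart.

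**Figure D2:**
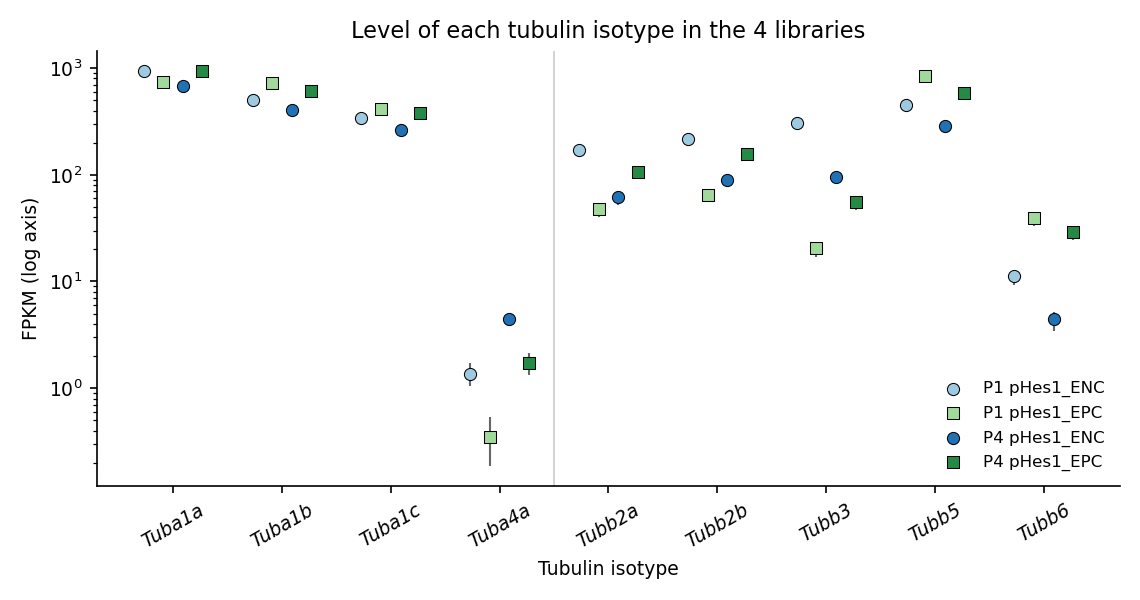
FPKM (log axis) of the 9 isotypes in the 4 libraries, alpha isotypes on the left of the line and beta isotypes on the right. Each point is 1 library, circles are pHes1_ENC, squares are pHes1_EPC, and vertical lines span the 95% interval of Cufflinks, which for most isotypes ends below the point. Tubb3 ran from 20.5 in P1 pHes1_EPC to 308 in P1 pHes1_ENC, while Tuba1a stayed between 673 and 950.

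Tubb3, the neuronal isotype, had an FPKM of 308 in pHes1_ENC against 20.5 in pHes1_EPC at P1, and of 94.9 against 55.4 at P4. It was highest in the EGFP-negative cells at P1 and lowest in the EGFP-positive cells of the same age, and the libraries of P4 lay between. The ratio of pHes1_ENC to pHes1_EPC was 15.0 at P1, with a range of 12.9 to 16.5 from the intervals, and 1.71 at P4, with a range of 1.55 to 1.88. On the log2 scale the difference was -3.85 at P1 and -0.77 at P4. Both fractions moved towards each other, since Tubb3 was lower at P4 than at P1 in pHes1_ENC (-1.69) and higher in pHes1_EPC (1.39).

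Tubb2a had an FPKM of 170 in pHes1_ENC against 47.5 in pHes1_EPC at P1, and of 61.6 against 107 at P4. Its near copy Tubb2b had 219 against 65.0 at P1 and 89.3 against 158 at P4. For both genes pHes1_ENC was the higher fraction at P1 and pHes1_EPC the higher fraction at P4. At P1 the ratio of pHes1_ENC to pHes1_EPC was 3.58 for Tubb2a (range 3.22 to 3.92) and 3.36 for Tubb2b (range 3.07 to 3.59). At P4 the ratio of pHes1_EPC to pHes1_ENC was 1.74 for Tubb2a (range 1.57 to 1.91) and 1.77 for Tubb2b (range 1.64 to 1.92). The higher level in pHes1_EPC at P4 was kept on every scale, with log2 differences of 0.46 to 0.80 for Tubb2a and 0.41 to 0.83 for Tubb2b over the alternatives, although it stayed below 2-fold on all of them. The ratio of Tubb2b to Tubb2a within a library was steady, at 1.29, 1.37, 1.45 and 1.48, and since the pair shares long identical stretches, of which the longest has 551 bases, their like course is not independent evidence. A line for the pseudogene Tubb2a-ps2 was listed at 125, 34.5, 51.2 and 83.2 and kept a ratio to Tubb2b of 0.526 to 0.573 in the 4 libraries.

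Tubb5, a beta isotype found in most cells, had an FPKM of 451 in pHes1_ENC against 844 in pHes1_EPC at P1, and of 284 against 589 at P4. It was higher in the EGFP-positive cells at each age and lower at P4 than at P1 in each fraction. The ratio of pHes1_EPC to pHes1_ENC was 1.87 at P1 (range 1.81 to 1.91) and 2.07 at P4 (range 1.99 to 2.14), so that Tubb5 passed 2-fold at P4 by a narrow margin, and its log2 difference of 1.05 there became 0.84, 0.76 and 0.62 under median-of-ratios scaling, the same total and quantile normalization. Tubb6, a broadly expressed isotype of low level, had an FPKM of 11.4 against 39.3 at P1 and of 4.47 against 29.3 at P4. Its ratio of pHes1_EPC to pHes1_ENC was 3.46 at P1 (range 2.81 to 4.05) and 6.55 at P4 (range 4.79 to 8.35), the highest ratio in favour of pHes1_EPC of any member at either age.

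The alpha isotypes Tuba1a, Tuba1b and Tuba1c stayed within 2-fold between the fractions at both ages. Tuba1a, the alpha isotype typical of young neurons, had an FPKM of 950 in pHes1_ENC against 741 in pHes1_EPC at P1, and of 673 against 937 at P4. It ranked 6th, 10th, 24th and 18th among all genes. Re-assignment of shared windows put Tuba1a at 2294, 1509, 1582 and 2163, so these ranks are uncertain. The EGFP-negative cells were higher at P1 and the EGFP-positive cells at P4, with ratios of pHes1_EPC to pHes1_ENC of 0.781 (range 0.757 to 0.806) and 1.39 (range 1.35 to 1.44). The log2 difference of 0.48 at P4 fell to 0.17 under quantile normalization but did not change sign.

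Tuba1b, an alpha isotype found in most tissues, had an FPKM of 497, 719, 406 and 614, and Tuba1c, likewise broadly expressed, had 343, 412, 260 and 382. Both were higher in pHes1_EPC at each age, by 0.53 and 0.60 on the log2 scale for Tuba1b and by 0.27 and 0.55 for Tuba1c. Tuba4a, whose gene lacks the tyrosine codon, was the rarest member, with an FPKM of 1.37, 0.352, 4.43 and 1.73. It was the only member under an FPKM of 10 in all 4 libraries. The EGFP-negative cells had the higher level at each age, 3.89-fold at P1 (range 1.94 to 9.22) and 2.57-fold at P4 (range 1.79 to 3.81), and its log2 differences of -0.81 and -0.99 lay within 2-fold with the pseudocount of 1. At P4 this call rested on the scaling as well, since the difference was -1.13, -1.24 and -1.24 under median-of-ratios scaling, the same total and quantile normalization.

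**Figure D3:**
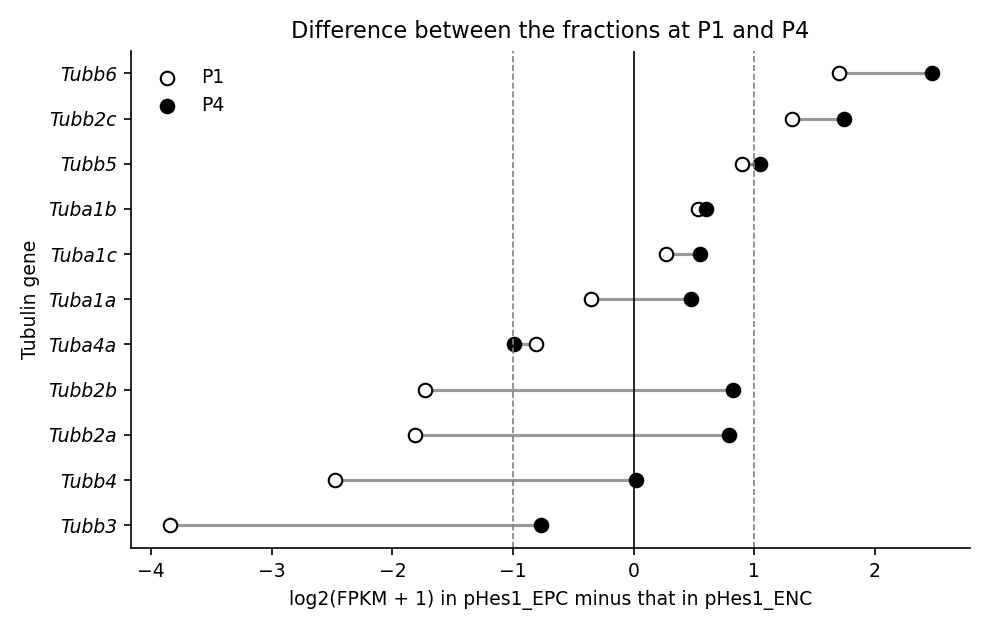
Difference in log2(FPKM + 1), pHes1_EPC minus pHes1_ENC, of the 9 isotypes and of Tubb4 and Tubb2c at P1 (open circles) and P4 (filled circles), with dashed lines at 2-fold. Tubb2a, Tubb2b and Tuba1a lie on opposite sides of 0 at the 2 ages, and Tubb3 moves from -3.85 to -0.77.

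Between P1 and P4 the EGFP-negative cells had 1 isotype that was more than 2-fold higher at P4, Tuba4a (1.20), beside 2.77% of all genes, and 4 isotypes that were more than 2-fold lower, Tubb2a (-1.45), Tubb2b (-1.28), Tubb3 (-1.69) and Tubb6 (-1.18), beside 5.94% of all genes. In the EGFP-positive cells 4 isotypes were more than 2-fold higher at P4, Tuba4a (1.01), Tubb2a (1.15), Tubb2b (1.27) and Tubb3 (1.39), beside 4.17% of all genes, and 0 were lower by this measure, beside 2.57%. Among the genes that reached an FPKM of 10 the shares were 5.28% higher and 9.31% lower in pHes1_ENC and 8.82% and 4.34% in pHes1_EPC. The count of 4 higher isotypes in pHes1_EPC was sensitive to scaling, with 1 after rescaling to the same total, 2 after median-of-ratios scaling, and 1 higher and 1 lower after quantile normalization. The beta isotypes Tubb2a, Tubb2b and Tubb3, were more than 2-fold lower at P4 in pHes1_ENC and more than 2-fold higher at P4 in pHes1_EPC, a pattern that 0.452% of the genes reaching an FPKM of 10 had. This holds for the deposited scale, since in pHes1_EPC Tubb2a came to 0.98, 0.83 and 0.80 and Tubb2b to 1.09, 0.94 and 0.84 under median-of-ratios scaling, the same total and quantile normalization, and Tubb3 alone of the 3 stayed past 2-fold in both fractions under all of these. Tuba1a was 0.34 higher at P4 in pHes1_EPC on the deposited scale, but this direction flipped to -0.32 under quantile normalization, and in pHes1_ENC it was lower by 0.50. By the looser rule that the intervals of 2 libraries do not overlap, all 9 isotypes differed in every comparison. In pHes1_EPC 4 were higher and 5 lower at P1, beside 22.1% and 21.8% of all genes, and 7 were higher and 2 lower at P4, beside 28.3% and 18.6%. From P1 to P4 1 was higher and 8 were lower in pHes1_ENC, beside 16.9% and 21.1% of all genes, and 5 were higher and 4 lower in pHes1_EPC, beside 27.0% and 14.8%. Among the genes reaching an FPKM of 10 these shares lay between 22.2% and 52.7%. The age comparisons use the same 4 libraries as the fraction comparisons, and age and library cannot be told apart.

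Shares within a library do not depend on how libraries are scaled to each other. Of the summed FPKM of the 5 beta isotypes, which was 1159, 1016, 535 and 939, Tubb5 took 38.9%, 83.0%, 53.2% and 62.7%. Tubb3 took 26.6%, 2.02%, 17.8% and 5.90%. Tubb5 was therefore the leading beta isotype in every library, and the excess over Tubb3 was 1.47-fold in pHes1_ENC and 41.2-fold in pHes1_EPC at P1, and 3.0-fold and 10.6-fold at P4. Tubb2b held 18.9%, 6.40%, 16.7% and 16.9%, and Tubb2a 14.6%, 4.67%, 11.5% and 11.4%. In shares, the Tubb2a and Tubb2b transcripts of the P4 fractions were thus nearly level, and the difference in their FPKM at P4 went with the difference in the beta sum, which was 939 in pHes1_EPC and 535 in pHes1_ENC. Tubb6 made up 0.981%, 3.87%, 0.836% and 3.12%. These shares leave out the beta genes Tubb1, Tubb4 and Tubb2c. With them in the sum Tubb5 still led, at 34.8%, 68.6%, 47.3% and 52.1%, and Tubb3 took 23.7%, 1.66%, 15.8% and 4.90%. Tubb2c then took 6.30%, 16.7%, 8.67% and 15.6%, and came next after Tubb5 in both pHes1_EPC libraries.

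Among the beta isotypes of the set the order was Tubb5, Tubb3, Tubb2b, Tubb2a and Tubb6 in both pHes1_ENC libraries. At P4, however, the intervals of Tubb3 and Tubb2b overlapped. In pHes1_EPC Tubb3 came last of the set at P1, behind Tubb6, and it stood between Tubb2a and Tubb6 at P4. Of the alpha sum, which was 1791, 1873, 1343 and 1934, Tuba1a took 53.0%, 39.6%, 50.1% and 48.5%, Tuba1b 27.8%, 38.4%, 30.2% and 31.7%, and Tuba1c 19.1% to 22%. The alpha order was Tuba1a, Tuba1b, Tuba1c and Tuba4a in all 4 libraries, but in P1 pHes1_EPC the intervals of Tuba1a and Tuba1b overlapped. That order did not outlast the re-assignment of shared windows, which put Tuba1b at 55.4% and Tuba1a at 38.2% of the alpha sum in P1 pHes1_EPC and left Tuba1c between 4.60% and 6.38%. Re-assignment also turned the beta order in P4 pHes1_ENC, where Tubb2b came to 22.1% and Tubb3 to 18.1% of the beta sum. Tubb5 kept the highest beta share in all 4 libraries, at 36%, 81.6%, 49.9% and 59.4%. The ratio of the beta sum to the alpha sum was 0.647, 0.542, 0.398 and 0.485 as deposited, and since re-assignment raised the alpha sum to 3654, 3952, 2762 and 4002, this ratio should not be read as the balance of the 2 subunits.

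**Figure D4:**
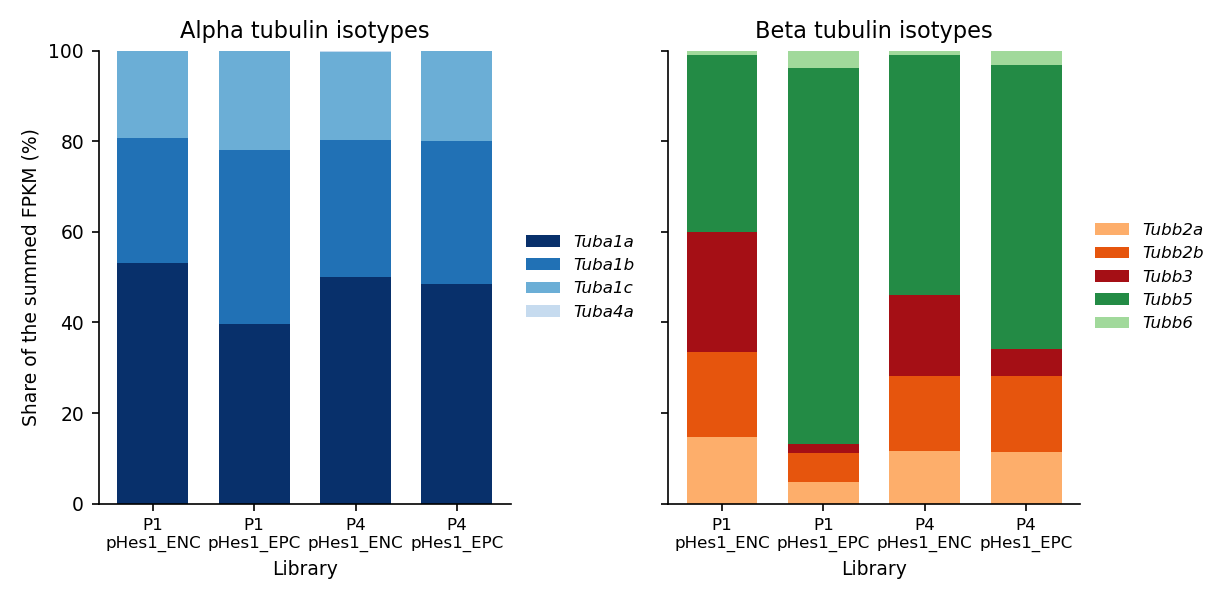
Share of each isotype in the summed FPKM of the alpha isotypes of the set (left) and of the beta isotypes of the set (right) in each library. Tubb4 and Tubb2c are not in these sums. Tubb5 fills 83.0% of the beta bar in P1 pHes1_EPC and 38.9% in P1 pHes1_ENC, where Tubb3 fills 26.6%, while the alpha bars differ less, with Tuba1a between 39.6% and 53.0%.

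The other tubulin genes of the tables fell on either side. Tubb4 (Tubb4a), a beta isotype of the nervous system, had an FPKM of 57.3, 9.46, 14.0 and 14.2, and its difference was -2.48 at P1 and 0.02 at P4, a course close to that of Tubb3 and the Tubb2 genes. Tubb2c (Tubb4b), a widely expressed beta isotype, had 81.8, 205, 52.1 and 177, and was higher in pHes1_EPC by 1.32 at P1 and 1.74 at P4, beside Tubb5 and Tubb6. Of its windows 70.9% occurred at other places. Tubg1, the gamma tubulin of centrosomes from which microtubules are nucleated, had 28.1, 44.2, 28.2 and 38.3, a difference of 0.64 and 0.43. Tuba8, Tuba3a, Tuba3b, Tubal3 and Tubb1 stayed below an FPKM of 1 in all 4 libraries.

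Genes that work with tubulin were grouped by role. None of the 20 genes for tubulin folding (the CCT chaperonin, prefoldin and the tubulin cofactors) exceeded 2-fold in either direction at P1 or P4. Their median difference was -0.03 at P1 and 0.49 at P4, where the median of all genes reaching an FPKM of 10 was 0.20. The P4 median of the folding genes was 0.29, 0.20 and 0.13 under median-of-ratios scaling, the same total and quantile normalization. That of the genes reaching an FPKM of 10 was 0.01, -0.08 and 0.03. Tbca, a cofactor that binds beta tubulin, had the highest P4 difference of this list (0.94), with an FPKM of 51.2, 63.9, 57.8 and 112. Of 25 genes for tubulin modification, 11 of which reached an FPKM of 10, 4 were more than 2-fold lower in pHes1_EPC at P1. At P4 3 were lower and 1 was higher. Most of the 25 encode enzymes of the tail, but Atat1, Hdac6, Sirt2 and Ccdc23 do not. Atat1 (-1.13) was among those lower at P1, and Ccdc23 was the one higher at P4. Of all genes 6.10% were higher and 6.79% lower at P1, and 9.85% higher and 5.42% lower at P4. Among the genes reaching an FPKM of 10 the P4 shares were 17.4% higher and 9.94% lower. Agtpbp1, a carboxypeptidase that removes glutamates from tails, had 11.9, 7.67, 21.5 and 6.13, a difference of -0.57 and -1.66, and Ttll1, a polyglutamylase, had 11, 4.06, 21.1 and 7.96, a difference of -1.25 and -1.30. Ccdc23 of the same list had 34.2, 29.4, 24.6 and 61.3, a difference of -0.21 and 1.28. Vash2 had 17.8, 8.06, 5.82 and 5.89, a difference of -1.05 and 0.02.

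Of 27 genes for microtubule-associated proteins and motors 11 were more than 2-fold lower in pHes1_EPC at P1 and 0 higher, and at P4 5 were lower and 3 higher, with medians of -0.51 and -0.36. The shares of all genes past 2-fold are those given for the tubulin modification genes. Mapt, which encodes tau of axons, had an FPKM of 32.3, 3.14, 4.92 and 14.4, and Fez1, a kinesin adaptor, had 43.8, 18.3, 9.25 and 42.2. Both were lower in pHes1_EPC at P1 (-3.01 and -1.22) and higher at P4 (1.38 and 2.08), which is the direction of Tubb2a and Tubb2b. Mtap6, a microtubule-stabilizing protein of neurons, was lower at both ages, with -1.85 and -1.35. Of the genes reaching an FPKM of 10, 14.6% were lower in pHes1_EPC at P1 and higher at P4, and 1.21% were so with a P1 difference beyond 2-fold, as Tubb2a and Tubb2b were. All 25 genes of the mitotic spindle were more than 2-fold higher in pHes1_EPC at both ages, with medians of 1.71 and 2.79. Spc25, a kinetochore subunit, had 21.7, 110, 3.22 and 83.8, and Aurkb, a mitotic kinase, had 17.2, 71.6, 1.32 and 27.7. Tubb5 differed by less than these, by 0.90 and 1.05, and Tubb6 lay among them, with 1.70 and 2.47. Of the 12 Müller glia genes 11 were higher in pHes1_EPC at P1 and all 12 at P4, with medians of 1.92 and 3.77. Clu was the exception at P1, with an FPKM of 3.33 in pHes1_ENC against 0.997 in pHes1_EPC (-1.12). From P1 to P4 in pHes1_EPC the medians were -1.08 for the spindle genes and 0.39 for the Müller glia genes, beside -0.41 for Tubb6.

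**Figure D5:**
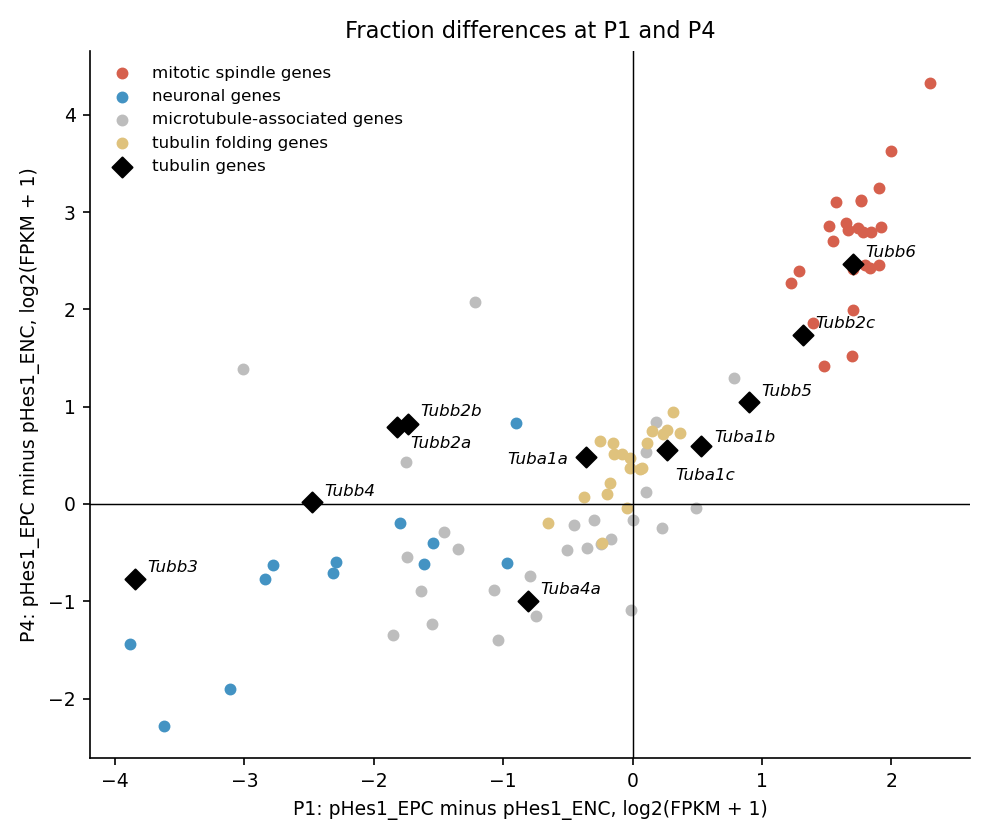
Difference in log2(FPKM + 1), pHes1_EPC minus pHes1_ENC, at P1 (horizontal axis) and P4 (vertical axis) of the 9 isotypes with Tubb4 and Tubb2c (diamonds) and of the genes of 4 lists (circles). The Müller glia genes are not drawn. Tubb6 and Tubb2c lie among the spindle genes in the upper right, Tubb3 lies with the neuronal genes in the lower left, and Tubb2a and Tubb2b lie in the upper left with Mapt and Fez1.

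Of the 12 neuronal genes, Snap25, a synaptic vesicle fusion protein, had 143, 10.7, 336 and 68.4, and Ina, a neuronal intermediate filament, had 50.1, 4.91, 8.42 and 1.52. Both were lower in pHes1_EPC at each age, as Tubb3 was. From P1 to P4 in pHes1_EPC Tubb3 was higher (1.39), while 8 of the 12 neuronal genes were lower and 4 higher, with a median of -0.39. Uchl1, a ubiquitin hydrolase of neurons, had 56.0, 29.6, 27.3 and 49.5 and turned from -0.90 at P1 to 0.84 at P4.

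The genes whose values over the 4 libraries were most like those of an isotype were found by the root mean square distance of centred log2(FPKM + 1), and the search took in the genes that reached an FPKM of 10. For Tubb3 they were Tcfap2c (0.23), Scrt2 (0.25), Chodl (0.28), Nhlh2 (0.28) and Celf4 (0.30), all of which were high in P1 pHes1_ENC and low in P1 pHes1_EPC. For Tubb5 the distances were smaller, with Ppat at 0.03, Pprc1 at 0.04, Ccdc41 at 0.05, and Eri2 and Ppil1 at 0.06. For Tuba1a they were Mpnd (0.02), 2900097C17Rik (0.03), 9530082P21Rik (0.03), Ptbp2 (0.04) and Tia1 (0.04). Each distance rests on 4 values and is a description only.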

How the data were processed

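RNA from EGFP-positive and EGFP-negative retinal cells was sequenced at P1 and P4 in 4 libraries, which were grouped by fraction and age from their labels. With TopHat2 2.0.8b the authors placed the single-end 36-base reads on NCBI37/mm9, and they deposited the FPKM that Cufflinks 2.1.1 estimated per gene, with 95% intervals. The protocol names no step that marks strand. Read counts are not in the tables, so depth enters only through these intervals. The FPKM were used without further scaling. Of 23021 gene lines, 797 small RNA lines were left out, and the highest line of each symbol was kept, which gave 21827 genes.

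Differences are of log2(FPKM + 1), and a gene was called when they exceeded 1 or fell below -1. Alternatives tried were a pseudocount of 0.1, a ratio without pseudocount, an FPKM minimum of 1 or 10, 3 scalings (same total, median-of-ratios, quantile), small RNAs kept, genes with status OK, summed lines of a symbol, intervals that do not overlap, all tubulin genes in the pools, and shared windows re-assigned. Re-assignment solved a non-negative least squares system in which each window was divided evenly over its places in the 22 chromosome sequences searched. Some sequences are not reported here. Protein sequences were not used here, so coding DNA of the NCBI37/mm9 annotation was compared instead. Named genes are the 9 members, the other tubulins, and the 5 nearest genes of Tubb3, Tubb5 and Tuba1a. To these were added the 2 genes of each list with the highest and lowest P4 difference among those reaching an FPKM of 10. Not all of these genes are printed. The members and lists were chosen with earlier results of these data known. Scripts used Python 3.11.15, numpy 2.4.6, pandas 2.3.3, scipy 1.17.1, Biopython 1.88 and matplotlib 3.10.9, and were tested on simulated data.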

Additional observations from a re-analysis of the deposited data

Results flagged for a closer look

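Tubb2a, Tubb2b and Tuba1a were singled out because the fractions differed in opposite directions at the 2 ages, lower in pHes1_EPC at P1 and higher at P4. The change of the difference in log2(FPKM + 1) from P1 to P4 was 2.60 for Tubb2a, 2.55 for Tubb2b and 0.83 for Tuba1a. With 1 library in each group this difference between the ages was not tested. Tubb2a and Tubb2b share 36-base windows with each other, and Tuba1a shares them with Tuba1b and Tuba1c. Each of these genes also shares windows with places outside tubulin exons.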

How the results depend on the processing

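Rescaling changed counts near 2-fold. For pHes1_EPC minus pHes1_ENC at P4, the higher isotypes went from 2 to 1 under the same total, median-of-ratios and quantile scalings. The lower isotypes went from 0 to 1 under a pseudocount of 0.1, a ratio without pseudocount and median-of-ratios scaling, and to 2 under the same total and quantile normalization. For P4 minus P1 in pHes1_EPC the higher isotypes went from 4 to 1 (same total), 2 (median-of-ratios) and 1 (quantile), and the lower isotypes from 0 to 1 (quantile). Intervals that do not overlap, a looser rule, gave 4 higher and 5 lower isotypes at P1, 7 and 2 at P4, 1 higher and 8 lower at P4 than at P1 in pHes1_ENC, and 5 higher and 4 lower in pHes1_EPC. The only sign among the members' 36 differences that turned under any alternative was that of Tuba1a, P4 minus P1 in pHes1_EPC, at -0.32 under quantile normalization. Summed lines of a symbol and re-assigned windows changed no sign and no side of 2-fold. Tuba4a passed 2-fold at both ages with less pseudocount, with -1.96 and -1.36 for the plain ratio, and at P4 also under each of the 3 scalings. No paired analysis was possible because each group has 1 library and no replicate numbers. The intervals cover counting error only, windows were taken from the reference genome and not from FVB/N, and the way the aligner placed each read was assumed.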
